A study of Mus musculus with 2 samples.

Results

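The 4 Hox clusters of the mouse genome were described in collecting duct cells purified from kidneys of Wild type mice and of mice with an induced deletion of Gata2, a zinc finger transcription factor that binds GATA motifs. A gene was included when its name on the array was Hox, a cluster letter from a to d and a paralogue number, and when its probe was not a control. This gave 38 genes of 30198 on the array, read by 50 of 41173 probes in 59 spots. RefSeq lists 39 mouse Hox genes, and the remaining one, Hoxc11, was not analysed here. Of the 50 probes, 46 carried an accession found in the RefSeq table of GRCm38.p6, where the symbols were the same.

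The study hybridised 1 array per genotype. The wild type (WT) array was given RNA of cells from Wild type mice, with no transgene named in the labels. The conditional knockout (CKO) array held RNA of cells from Gata2flox/-::Pax8-rtTA::Tet-Cre mice. These carried 1 floxed and 1 null Gata2 allele, a doxycycline-dependent activator under the Pax8 promoter, which is active along the renal tubule, and a Cre gene that the activator turns on. Both groups were 8 weeks old and of mixed sex, and doxycycline began at 4 weeks of age and lasted 4 weeks. The treatment entry is the same for both arrays, and the labels do not say separately whether WT mice drank it. Cells outside the tubule of CKO mice had 1 Gata2 allele fewer, so that loss and the tubule deletion cannot be told apart. Collecting duct cells were captured with DBA lectin on magnetic beads. The design text gives 3 mice per genotype, but no label says outright that their RNA was pooled. With 1 array per genotype there was no replicate check, so no difference was tested and none carries a p-value.

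Hox genes encode homeodomain transcription factors and lie in clusters in which the order of the genes follows the order of the body regions that they pattern. Genes of one number in different clusters are paralogues and often act redundantly. In the developing kidney, Hox11 paralogues are required in the mesenchyme for outgrowth of the ureteric bud, the source of the collecting duct, and Hoxb7 regulatory sequence is widely used to drive transgenes in that bud and its descendants. Hox proteins bind DNA together with homeodomain cofactors of the Pbx, Meis and Pknox families, and Polycomb and trithorax proteins keep the clusters silent or active.

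The sequences that the results turn on are those of genes whose probes differed from each other, and of the genes that were at least 2-fold apart or measured on 1 array only. The first 30 bases of each probe follow, 5′ to 3′ with the mm9 position of the whole probe, and no bases are in capitals.
Hoxb6 upstream probe, chr11:96160281-96160340 (+ strand): ggtgctatttgacaattcctgcctctgcca
Hoxb6 downstream probe, chr11:96162563-96162622 (+ strand): tcgagtctcatttcgtccatgtcccccgtg
Hoxb8 upstream probe, chr11:96143892-96143951 (+ strand): catcccttcttcgaaatgtaaagcgaggac
Hoxb8 downstream probe, chr11:96146456-96146515 (+ strand): gtgagcattgttaaaaatgttcttaggttt
Hoxb9 upstream probe, chr11:96137065-96137124 (+ strand): tcctatcctcatttgacagaatgtaacttt
Hoxb9 downstream probe, chr11:96137748-96137807 (+ strand): gcttgtgttttgtgatttctttggcagtga
Hoxd1 probe, chr2:74603000-74603059 (+ strand): ccacagggtaggtaaggattagaatctgaa
Hoxa11 probe, chr6:52192107-52192166 (- strand): tgaatgtatgcttcatacagggatggtgtt
The upstream and downstream probes of a gene read different parts of its transcripts, and both lie on the strand of the cluster. Of the 50 Hox probes, 10 had a stop codon in all 3 reading frames.

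Each value below is the background-corrected signal of a probe, in arbitrary units of brightness. The scanner software calls a spot well above background when its signal exceeds a limit set by the background, and this is the meaning of measured below. The lowest signal so called was 12.0 in WT and 11.6 in CKO. A difference is CKO minus WT of log2 signal, after each array was set to its own 75th percentile, and its error is the spot error that the scanner software states. A gene took the value of its brightest measured probe. Probes differ in how strongly they bind, so signals of different genes were not ranked. Probes of 1 gene had a root mean square SD of 0.27 in their log2 differences over 5308 genes, and a difference within 0.27 is no larger than that spread. Both arrays lay on 1 slide and were scanned together. The Gata2 probes were at 3432 and 3943 in WT and at 2194 and 2424 in CKO, with differences of -0.32 ± 0.20 and -0.37 ± 0.20, and they may read transcript outside the deleted part, so they do not check the labels.

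Of the 38 Hox genes, 26 were measured in WT and 25 in CKO, or 68.4% and 65.8%. Over all genes on the array these shares were 61.5% and 59.9%, so the share of Hox genes was near that of any gene. By paralogue number, detection dropped after group 10. All 7 genes of groups 9 and 10 were measured on both arrays, as were 12 of 15 in groups 4 to 8 and 6 of 8 in groups 1 to 3. Of the 8 genes of groups 11 to 13, Hoxa11 alone was measured in WT and 0 were measured in CKO.

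**Figure D1:**
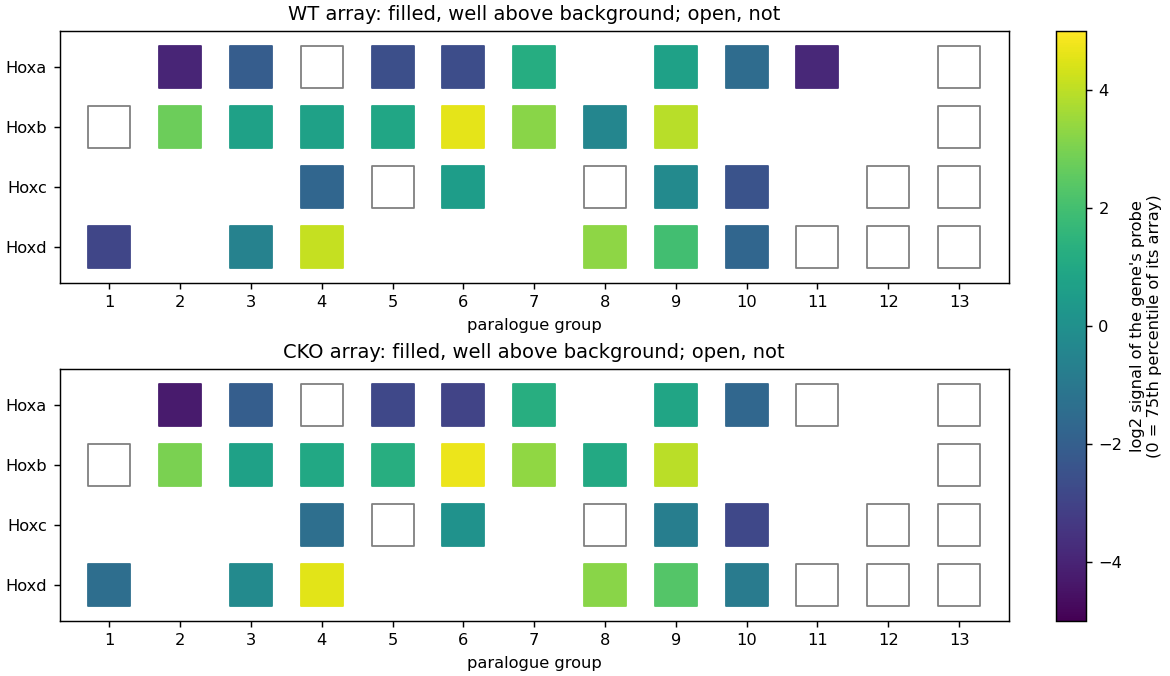
Detection of Hox genes, with 1 panel per array, clusters Hoxa to Hoxd as rows and paralogue groups 1 to 13 as columns. Filled squares are genes well above background, coloured by log2 signal relative to the 75th percentile of the array, and open squares are genes that were not. Filled squares end at group 10, apart from Hoxa11 in WT, and colours of different genes are not ranked.

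By cluster, Hoxb had the most complete coverage, with 8 of 10 genes measured on both arrays, and Hoxb1 and Hoxb13 at its ends were the genes missed. Hoxd had 6 of 9, Hoxa 7 of 11 with Hoxa11 added in WT, and Hoxc 4 of 8. Within groups 4 to 8 the genes not measured were Hoxa4, Hoxc5 and Hoxc8. A gene that was not measured may still be transcribed below this limit. Of the 12 genes measured on neither array, 7 had a signal in WT that the software called positive and significant over background, and that looser call gave 33 genes in WT.

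The 12 genes had dim signals. Hoxa4, which patterns the cervical region, came closest, with 12.5 and 11.7 on its 2 probes in WT and 9.16 and 5.41 in CKO. Hoxc8 gave 11.2 in WT and 8.35 in CKO. Hoxd11, the paralogue that acts with Hoxa11 in kidney formation, gave 6.94 in WT and 3.80 in CKO. Hoxc5 gave 6.20 and 4.93. A further 7, Hoxb1, Hoxa13, Hoxb13, Hoxc12, Hoxc13, Hoxd12 and Hoxd13, lay between 2.36 and 4.13 on every probe and array, where the negative control spots had medians of 2.67 and 2.53. For none of these 12 genes was a fold change given.

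**Figure D2:**
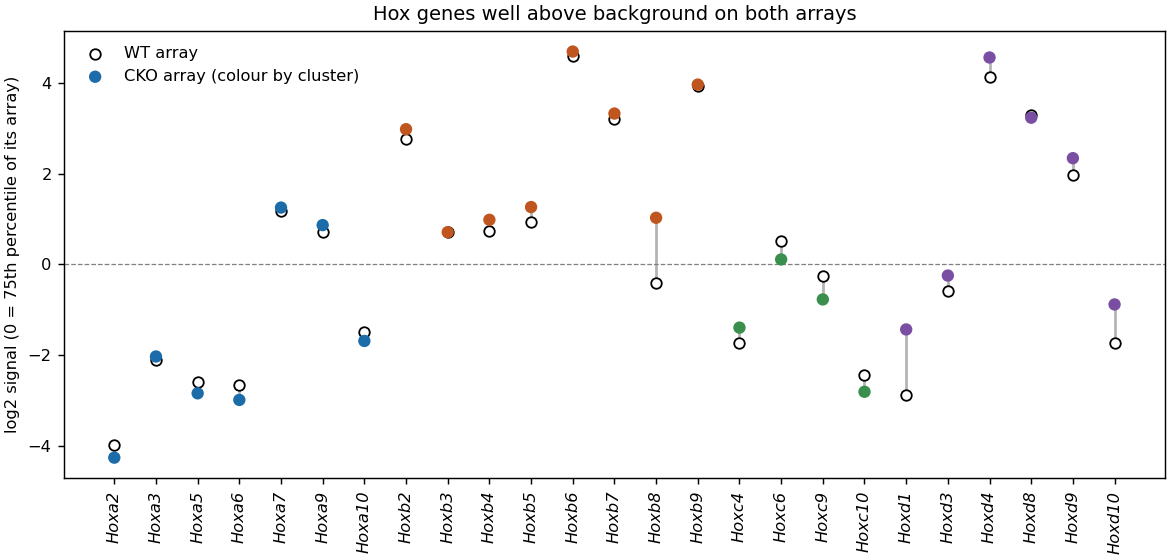
Log2 signal of the 25 Hox genes measured on both arrays, with 0 at the 75th percentile of each array, open points for WT and filled points for CKO, coloured by cluster. WT values run from -3.98 for Hoxa2 to 4.59 for Hoxb6, and the longest lines between the arrays are those of Hoxb8 and Hoxd1.

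Between the genotypes, Hox genes differed in both directions, and few by 2-fold. Of the 25 genes measured on both arrays, 16 were higher in CKO and 9 were lower, where 59.0% of all genes so measured were higher and 41.0% were lower. Their median difference was 0.10, beside 0.05 for all genes. For 10 of the 25 the difference was smaller than the spot error, a lower share than the 59.7% of all genes. It exceeded 0.27 in 13 of the 25, 8 of them higher and 5 lower, where 33.9% of all genes exceeded it, 20.8% higher and 13.1% lower. Of the 26 genes measured on at least 1 array, 2 were at least 2-fold higher in CKO, Hoxb8 and Hoxd1, and 0 were at least 2-fold lower. Among all genes so measured 1.49% were higher by that much and 2.84% were lower, which is 282 and 538 genes. After cyclic loess the latter counts were 206 and 642, and with the spike-in transcripts set equal they were 58 and 1642. In all these counts a gene measured on 1 array entered by its bound. Hoxa11, measured in WT only, entered as at least 1.45-fold lower, so its place outside the 2-fold count does not show that it fell by less. Setting the spike-ins equal lowered every difference by 0.55, so the signs below hold for the 75th percentile scaling and are relative to that shift.

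**Figure D3:**
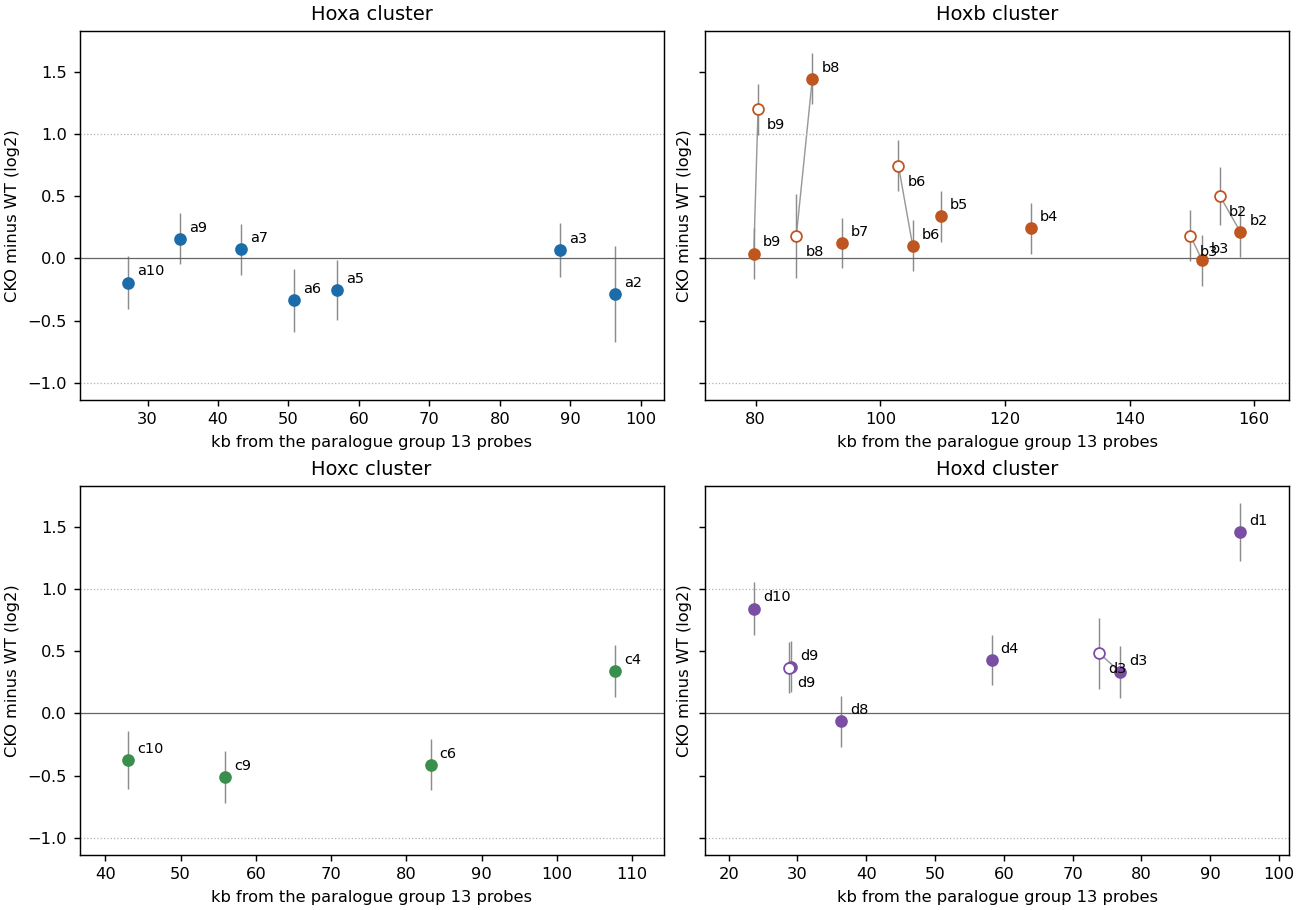
CKO minus WT log2 difference of Hox probes measured on both arrays, against distance in kilobases from the group 13 probes, with 1 panel per cluster. Filled points are the probe that stands for a gene, open points its other probe, joined by a line, and bars are the spot error, with dotted lines at 2-fold. All Hoxd points but Hoxd8 lie above 0, all Hoxc points but Hoxc4 lie below it, and the probes of Hoxb6, Hoxb8 and Hoxb9 lie apart.

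The clusters differed in their medians, with no test. The Hoxd median was 0.40 over 6 genes, 5 of them higher in CKO, and the Hoxb median was 0.17 over 8 genes, 7 of them higher. The Hoxa median was -0.19 over 7 genes, 4 of them lower, and the Hoxc median was -0.39 over 4 genes, 3 of them lower. With the spike-ins set equal the 4 medians were -0.14, -0.38, -0.74 and -0.94. That scaling lowers all differences alike, so it could not change their order or the gaps between them. The Hoxd and Hoxc medians were 0.79 apart. That gap was 0.56 with normexp background correction and an offset of 50 added to every signal, and 0.38 when unmeasured genes were counted. The first setting, called normexp below, also turned the Hoxa median to 0.06. It started from mean spot signals and local background medians, not from the processed signals. Genes of a cluster are neighbours on 1 array, and they are no replicates of the condition.

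The Hoxd cluster, at chr2:74508005-74603059 in mm9 by its outermost probes, held 1 of the 2 genes past 2-fold. Hoxd1, at its anterior end, had a signal of 42.3 in WT and 92.3 in CKO, a difference of 1.46 ± 0.23. Its difference was 0.79 with normexp and 0.91 with spike-in scaling, both under 2-fold. Hoxd10, which acts in hindlimb and spinal cord patterning, had 94.9 in WT and 135 in CKO, a difference of 0.84 ± 0.21. Both genes were higher in CKO in every alternative tried. Each has 1 probe, so the filters on dim probes and the mean over probes could not move them.

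The other Hoxd genes were closer. Hoxd4 had 5523 in WT and 5917 in CKO, a difference of 0.43 ± 0.20. Hoxd9 had 1230.1 and 1268, a difference of 0.37 ± 0.20, and its other probe gave 0.37 as well. Hoxd3 had 210.4 and 210.5, a difference of 0.33 ± 0.21, with 0.48 ± 0.28 on its other probe. The unscaled signals of these 3 genes were close on the 2 arrays, and all 3 differences were below 0 with the spike-ins set equal. Hoxd8 had 3094 in WT and 2356 in CKO, a difference of -0.06 ± 0.20, within the spot error.

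The Hoxb cluster, at chr11:96057368-96228510, held the other gene past 2-fold. Hoxb8, a gene that also acts in blood progenitors, had a signal of 236 in WT and 509.5 in CKO on its downstream probe, a difference of 1.44 ± 0.20. Its upstream probe, 1788 bases away in the transcript, had 20.6 in WT and 18.6 in CKO, a difference of 0.18 ± 0.34. The 2 probes were 1.26 apart, so the Hoxb8 difference was seen on 1 of 2 probes. It was 0.90 with the spike-ins set equal and 0.81 as the mean over both probes.

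Hoxb9 and Hoxb6 showed the same kind of split. The upstream probe of Hoxb9 had 4786 in WT and 3909 in CKO, a difference of 0.04 ± 0.20. Its downstream probe, 683 bases further on, had 1388 and 2531, a difference of 1.20 ± 0.20. For Hoxb6 it was the upstream probe that was higher in CKO, with 1628 and 2168 and a difference of 0.74 ± 0.20, while the downstream probe had 7596 and 6481 and a difference of 0.10 ± 0.20. Of the 7 Hox genes with at least 2 probes measured on both arrays, 2 had probes more than 1 log2 unit apart, where 2.35% of 5308 such genes did. The root mean square SD between probes was 0.50 over those 7 Hox genes, beside 0.27. Counted by probe, 3 of 32 Hox probes were at least 2-fold higher, where 1.06% of all probes were, and 0 were at least 2-fold lower, where 2.08% were. The 7 genes and the 32 probes include Hoxb2 with a second probe that lies on the strand opposite to the cluster.

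The remaining Hoxb genes differed by at most 0.34. Hoxb5 had 597 in WT and 600.2 in CKO, a difference of 0.34 ± 0.20. Hoxb4, a regulator of blood stem cell expansion, had 525 and 494, a difference of 0.24 ± 0.20. Hoxb2, a hindbrain patterning gene, had 2142 and 1976, a difference of 0.21 ± 0.20, and a second probe under its name, which lies on the opposite strand to the cluster, had 45.1 and 50.7 and a difference of 0.50 ± 0.24. Hoxb7, whose regulatory sequence marks the ureteric bud lineage, had 2896 in WT and 2510.5 in CKO, a difference of 0.12 ± 0.20, within the spot error. Hoxb3 had 519 and 409, a difference of -0.01 ± 0.20, with 0.18 on its other probe.

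The Hoxc cluster, at chr15:102758794-102866583, had the lowest median, with 3 of 4 genes lower in CKO. Hoxc9 had a signal of 261 in WT and 146 in CKO, a difference of -0.51 ± 0.21. Hoxc6 had 450.5 and 269, a difference of -0.41 ± 0.20, and Hoxc10 had 57.9 and 35.6, a difference of -0.37 ± 0.24. The second Hoxc10 probe was not measured on either array, with 12.8 and 6.08. These 3 genes, with the unmeasured Hoxc8 between Hoxc9 and Hoxc6, were lower in CKO in every alternative. The ranges were -1.06 to -0.37 for Hoxc9, -0.96 to -0.36 for Hoxc6 and -0.92 to -0.06 for Hoxc10. Spike-in scaling can only lower them. The filters on dim probes and the mean over probes could not move them, as each has 1 measured probe. Hoxc4, at the other end of the cluster, had 94.2 in WT and 94.9 in CKO, a difference of 0.34 ± 0.21.

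In the Hoxa cluster, at chr6:52105768-52209074, 5 of 7 differences lay within the spot error. Hoxa11 was the one gene measured in WT and not in CKO, with signals of 21.1 and 2.65. It was at least 1.45-fold lower in CKO, and this bound was 1.05-fold with normexp and 2.12-fold with the spike-ins set equal. Hoxa6 had 49.8 in WT and 31.4 in CKO, a difference of -0.34 ± 0.25, and Hoxa5, which acts in lung development, had 52.1 and 34.7, a difference of -0.25 ± 0.24. With normexp these were 0.02 and 0.05, so their direction changed. The parts of its input signal, its correction and its offset were not separated.

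The other Hoxa genes were within their spot error. Hoxa2 had 19.9 and 12.98, a difference of -0.28 ± 0.38, and 0.15 with normexp. Hoxa10, a gene required in the uterus, had 111 and 77.4, a difference of -0.19 ± 0.21. Hoxa9, known for its part in leukaemia, had 513 and 455, a difference of 0.16 ± 0.20. Hoxa7 had 711 and 595, and Hoxa3, which acts in thymus and parathyroid development, had 73.2 and 61.0, and both differed by 0.07. The second Hoxa3 probe was not measured on either array, with 3.57 and 3.34.

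Paralogues of a number differed among themselves. In group 10 the differences ran from -0.37 for Hoxc10 to 0.84 for Hoxd10, a gap of 1.22. In group 9 they ran from -0.51 for Hoxc9 to 0.37 for Hoxd9, a gap of 0.88. In group 6 the gap was 0.51, from Hoxc6 to Hoxb6, in group 3 it was 0.35 and in group 4 it was 0.19. In groups 6, 9 and 10 the lowest value belonged to the Hoxc gene.

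Other transcripts inside the clusters were read by 10 probes, and 3 of these were measured on at least 1 array. Hoxd3os1, transcribed from the strand opposite to the Hoxd genes at chr2:74548166-74548225, had 401 in WT and 319.6 in CKO, a difference of 0.00 ± 0.20. A second probe on that strand, at chr2:74551381-74551440, was measured in CKO only, with 9.84 and 18.6, and was at least 1.94-fold higher there. An unnamed probe between Hoxa6 and Hoxa7 had 55.4 and 38.8, a difference of -0.18 ± 0.23. Genes flanking the clusters gave 19 of 20 measured, with 11 higher and 8 lower, a median of 0.07 and 0 past 2-fold. The widest were Ttll6 beside Hoxb at 0.66, Evx2 beside Hoxd at 0.41, Calcoco2 at 0.32 and Lnpk at -0.36, whose other probes gave -0.04 and 0.16.

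All 10 listed cofactors of Hox proteins were measured on at least 1 array and 8 on both, 4 higher and 4 lower, with a median of 0.03. Meis2, which binds DNA beside Hox and Pbx proteins, was the one past 2-fold, with 182 in WT and 55.2 in CKO, a difference of -1.39 ± 0.22 and -1.61 on its other probe. With normexp it was -0.82. Pbx2 was at 0.32 with 0.13 on its other probe, Pbx3 at 0.22 and Pknox1 at -0.19, and Meis1 was measured in WT only and was at least 1.15-fold lower in CKO. Of the Polycomb and trithorax genes, 26 of 27 were on the array and all 26 were measured on both, 19 higher and 7 lower, with a median of 0.05 that equals that of all genes. Cbx8 at 0.44, Pcgf2 at 0.39, Rnf2 at -0.36 and Cbx7 at 0.25 were the widest, and 0 were past 2-fold.

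Genes that act upstream of Hox genes in the embryo, mostly of the retinoic acid pathway, gave 8 of 14 measured, 3 higher and 4 lower among the 7 on both arrays. Aldh1a2, which makes retinoic acid, had 274 in WT and 53.1 in CKO, a difference of -2.04 ± 0.21, and -1.28 with normexp. Cyp26b1, which breaks it down, had 152 and 41.7, a difference of -1.54 ± 0.23, and -0.72 with normexp. Aldh1a1, another retinoic acid synthase, was at 0.64 and the receptor gene Rarg at 0.32, with -0.14 and 0.01 on its other probes, while the Cdx genes were not measured. Of 9 partners and targets of Hox11 proteins in the embryonic kidney, 4 were measured, with Wnt11 at 0.66, Sall1 at 0.53, Pax2 at 0.45 and Itga8 at -0.79 with -0.56 on its other probe.

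Markers of other cells moved between the arrays as well. In bulk RNA, fewer cells of a type and less RNA per cell cannot be told apart. All 10 macrophage markers were lower in CKO with a median of -0.83, and their summed signal was 108 times the 75th percentile in WT and 52.7 times in CKO. Of 9 measured fibroblast and pericyte markers 8 were lower, with a median of -0.82 and a sum of 24.8 in WT and 21.4 in CKO, while Pdgfra was not measured. Acta2, the marker that was higher, at 0.05, was the brightest and weighs most in that sum, and its other probe gave -1.16. All 5 podocyte markers were lower on their brightest probe, with a median of -1.21 and a sum of 1.999 in WT and 1.08 in CKO. The other probe of Podxl gave 0.22. Synpo, at -0.03, was within its spot error and had -0.74 on its other probe. All 6 endothelial markers measured on both arrays were lower, with a median of -0.33, but Kdr, Flt1 and Tek lay within their spot error. Over all 8 endothelial markers, with Pecam1 and Cdh5 measured in WT only, the sum was 1.69 in WT and 0.92 in CKO. All 10 principal cell markers, which define the labelled cell type along with those of intercalated cells, were measured. All 8 intercalated cell markers were higher, with a median of 0.67 and a sum of 225 and 319. Car2 and Rhbg among them, both at 0.06, lay within their spot error. For principal cells 7 markers were lower, Scnn1b and Fxyd4 within their spot error, and the 10 had a median of -0.21 and a sum of 976 and 839. Medians were -0.24 for 7 proximal tubule markers, with a sum of 8.12 and 6.20, and 0.82 for 5 thick ascending limb markers, with a sum of 45.3 and 53.4. For 3 urothelium markers the median was -0.67, with a sum of 0.73 and 0.50, and Upk1b, Upk2 and Upk3a, which define that epithelium, were not measured. The part of these shifts in the Hox values, the lower Hoxc genes and Hoxa11 included, was not tested. Their part in the lower values of Meis2, Aldh1a2 and Cyp26b1 was not tested either.

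Sequence upstream of the start sites is shown for Hoxb8 and Hoxd1, the 2 genes past 2-fold, because Gata2 binds GATA motifs. The windows are the 250 bases before the start in RefSeq, in GRCm38.p6, another build than that of the probes. Capitals mark any match, on either strand, to AGATAA or to its variants, which begin with T in place of the first A or end with G in place of the last, or both.
Hoxb8 upstream window, chr11:96281655-96281904 (+ strand): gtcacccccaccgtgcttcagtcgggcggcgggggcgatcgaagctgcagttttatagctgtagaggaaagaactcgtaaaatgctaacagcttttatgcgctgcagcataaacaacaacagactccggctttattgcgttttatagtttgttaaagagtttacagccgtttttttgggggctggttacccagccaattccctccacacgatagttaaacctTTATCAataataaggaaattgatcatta
Hoxd1 upstream window, chr2:74762730-74762979 (+ strand): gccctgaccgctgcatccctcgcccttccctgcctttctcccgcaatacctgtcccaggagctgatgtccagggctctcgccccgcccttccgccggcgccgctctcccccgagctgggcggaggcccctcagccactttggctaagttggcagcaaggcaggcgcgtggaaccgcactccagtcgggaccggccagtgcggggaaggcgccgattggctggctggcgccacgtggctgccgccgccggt
Hoxb8 had 1 match, on the reverse strand at -28 from the start, and Hoxd1 had 0. Windows were at hand for 22 of the 38 Hox genes. Of their 24 windows, 6 held a match, 25.0%, where 26.5% of all 32851 windows did, so these held them about as often as any. The 6 belonged to Hoxa7, Hoxa9, Hoxb8, Hoxd8, Hoxd10 and Hoxd12. Hox genes outside the 22, Hoxc6, Hoxc9 and Hoxc10 among them, had no window. A match is a string of letters and shows no binding. Hox windows had a median of 12.5 CpG, against 6 over all windows.

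**Figure D4:**
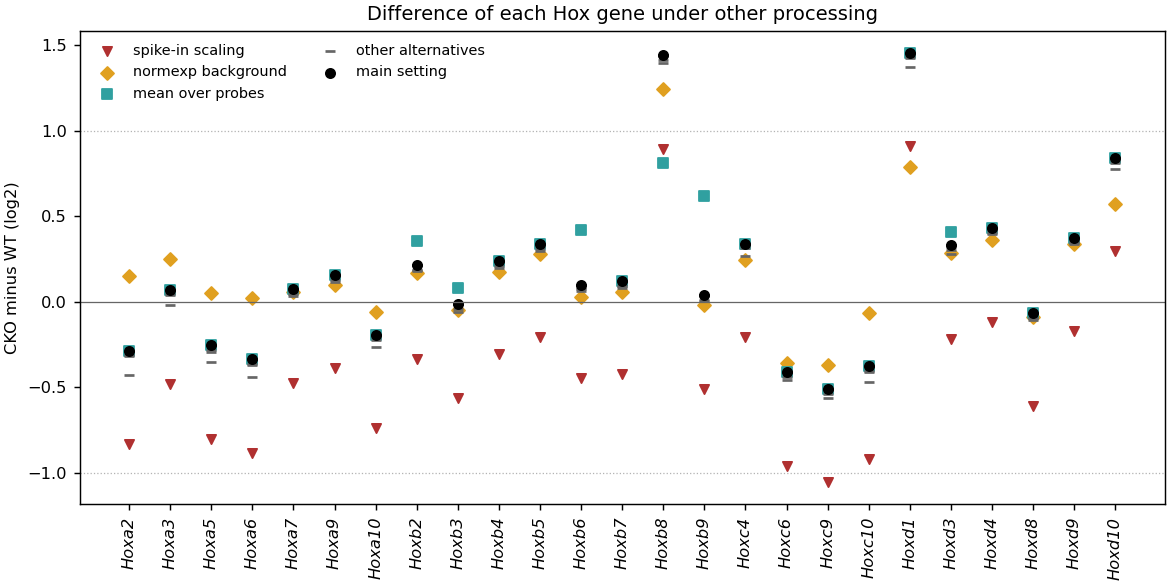
CKO minus WT log2 difference of the 25 Hox genes measured on both arrays, as reported (black points) and under each processing alternative (coloured symbols and dashes), with dotted lines at 2-fold. Hoxb8, Hoxd1 and Hoxd10 lie above 0 and Hoxc6, Hoxc9 and Hoxc10 below 0 under all 9 alternatives shown. Spike-in scaling lowers every gene by 0.55, so it could not raise the Hoxc genes. The filters on dim probes and the mean over probes could not move a gene with 1 measured probe.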

How the data were processed

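Purified collecting duct RNA of each genotype was read on 1 one-colour Agilent array. Per the labels' protocols, Cy3-labelled RNA was made from 50 ng of total RNA by low-input amplification. The deposited files hold spot intensity on a linear scale, and per the file headers it was extracted and background-subtracted with Feature Extraction 10.7.3.1 with spatial and multiplicative detrending, on mm9. How the authors normalized between arrays is not given in sources used here. Of 43379 non-control spots, outlier flags removed 66 in WT and 73 in CKO, and 0 were saturated. The number of arrays limits the precision.

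Values were log2 processed signals set to each array's 75th percentile, in Python 3.11.15 with numpy 2.4.6 and pandas 2.3.3, and in R 4.3.3 with limma 3.58.1 for normexp and the between-array alternatives. Repeated spots were averaged, and a gene took its brightest probe. The counting steps were run on a simulated array, made from the WT array with known changes. Its noise was smaller than the spread between probes, and it held no probe measured on 1 array only. That run therefore checks the steps and not the reported counts. For a probe measured on 1 array, the bound was its value over the higher of the lowest signal well above background and the dim signal. Every Hox gene was to be named, but 1 measured on neither array and some probe sequences are not reported here. Named from other lists were the genes at least 2-fold apart and up to 4 with the largest difference. Members and lists were chosen with earlier results of these data known.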

Additional observations from a re-analysis of the deposited data

How the results depend on the processing

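Each alternative changed 1 choice, except normexp and the setting with no filter on dim probes. Normexp started from mean spot signals and local background medians, without the detrending of the processed signals, and added an offset of 50. With no filter, a gene measured on 1 array also entered by its plain difference in place of its bound. Its medians ran over measured and unmeasured genes alike. The changes within each of these settings were not separated. The count of Hox genes at least 2-fold higher, 2 as reported, was 1 with normexp (Hoxb8), 0 with the spike-ins set equal and 1 with the mean over probes (Hoxd1). The count at least 2-fold lower, 0 as reported, was 2 with the spike-ins set equal and 2 with no filter on dim probes. Hoxa11 is in both of these counts. With no filter it entered at -2.66, a plain difference in which its CKO signal was not well above background. The Hox median was -0.45 with the spike-ins set equal, where that of all genes was -0.49. The gap between the Hoxd and Hoxc medians was 0.56 with normexp and 0.38 with no filter. Over all genes, 282 higher and 538 lower became 65 and 204 with normexp, 58 and 1642 with the spike-ins, and 1215 and 1241 with no filter. Of the 25 Hox genes, 8 kept their sign in every alternative and 19 in every one but spike-in scaling. The filters on dim probes and the mean over probes could not move a gene with 1 measured probe. For such genes these counts rest on fewer checks. Dim probes limit Hoxa2, Hoxa11 and the upstream Hoxb8 probe most. No paired analysis was possible because each genotype has 1 array and no test was made.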
